A study of Mus musculus with 8 samples.

Results

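The collagen genes of mouse 3T3-L1 cells were described in flat (2D) and spheroid (3D) culture, each with and without induction to adipocytes. They were taken by symbol: every gene of the count table named Col, a number, the letter a and a number, with at least 10 counts summed over the 8 libraries. Of 49585 genes in the table, 44 carried such a symbol and 35 reached that minimum. These 35 comprised 11 fibrillar chains, 6 basement membrane chains, 6 fibril-associated chains, 3 beaded-filament chains, 3 short-chain network chains, 2 multiplexins, 2 transmembrane collagens, the anchoring-fibril chain Col7a1, and Col28a1, which was put in no other class. The 9 symbols under 10 counts were Col13a1, Col19a1, Col25a1, Col26a1, Col6a4, Col6a5, Col6a6, Col9a1 and Col9a2. A filter for low counts, which a gene can pass through the libraries of 1 group alone, left 27 collagen genes among 15255 tested genes. Counts over these 27 therefore describe them and do not stand for all 35.

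Collagens are triple helices of chains that are folded in the endoplasmic reticulum, secreted, trimmed and cross-linked outside the cell. Types I, III, V and XI build fibrils, with types V and XI at the fibril core. Type IV forms the sheet of the basement membrane that surrounds each adipocyte, and type VI forms beaded filaments that are abundant in adipose tissue. The turnover of a fibrillar matrix into one rich in basement membrane is a known feature of adipogenesis.

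3T3-L1 is a preadipocyte line from mouse embryo fibroblasts that accumulates lipid under hormonal induction. The 4 groups, of 2 independently prepared samples each, were induced spheroids, uninduced spheroids, induced flat cultures and uninduced flat cultures, all collected on day 7. Spheroids were grown in hanging drops of 28 µL that were seeded with 20000 cells, and all cultures shared a high-glucose medium with calf serum and methylcellulose. Induced cultures received 250 nM dexamethasone with 10 nM triiodothyronine for the first 2 days, and 10 µM troglitazone with 1 µg/ml insulin on each of the 7 days. Uninduced cultures received none of the 4 agents. All groups came from 1 cell line, so they show how this line behaves in culture and hold no other cell of fat tissue.

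The libraries held 11839374 to 21169390 counts, and 1 CPM (the count per 1e6 counts of the library total after TMM scaling) stood for 11.2 to 20.1 counts. The induction label was checked with Fabp4, Plin1 and Adipoq, adipocyte genes that rose in both formats. Fabp4, a fatty acid carrier, read 842 and 1743 CPM in induced spheroids against 38.1 and 33.2 CPM in uninduced ones, and 4041 and 3613 CPM in induced flat cultures against 24.7 and 20.6 CPM in uninduced ones. The induced spheroid libraries stood apart from each other: the biological coefficient of variation over all genes was 0.327 there, 0.1105 in uninduced spheroids, 0.0473 in induced flat cultures and 0.0469 in uninduced flat cultures. Since the fit shares its spread between groups, this pair of libraries also widens the error of comparisons that do not contain it. The 2 induced spheroid libraries are therefore given singly, and results that turn on either are given without it. In bulk RNA, fewer cells of a type and less RNA per cell cannot be told apart.

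Collagen genes took a smaller share of the library in spheroids than in flat cultures without induction, and with 3 genes left out the shares were close. The 35 genes held 4.59% and 1.86% of all counts in induced spheroids (replicates 1 and 2), 3.19% and 3.41% in uninduced spheroids, 4.47% and 4.36% in induced flat cultures, and 5.61% and 5.76% in uninduced flat cultures. The uninduced groups did not overlap, whereas the induced spheroid libraries fell on either side of the induced flat ones. Without Col1a1, Col1a2 and Col3a1, the chains of types I and III, the shares were 2.60% and 1.25% in induced spheroids, 1.71% and 1.70% in uninduced spheroids, 1.83% and 1.79% in induced flat cultures, and 1.72% and 1.75% in uninduced flat cultures. Outside the pair of induced spheroid libraries, the collagens that are left thus took between 1.70% and 1.83% of each library. That remainder sums chains that were lower in uninduced spheroids than in uninduced flat cultures and chains that were higher, such as Col5a2 (989 against 1892 CPM) and Col5a3 (261 against 145 CPM). It also uses unscaled totals. TMM factors were 1.08 and 1.06 in uninduced spheroids and 0.950 and 0.947 in uninduced flat cultures, so an equal share is a lower CPM in spheroids. Shares were compared by their overlap and were not tested.

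**Figure D1:**
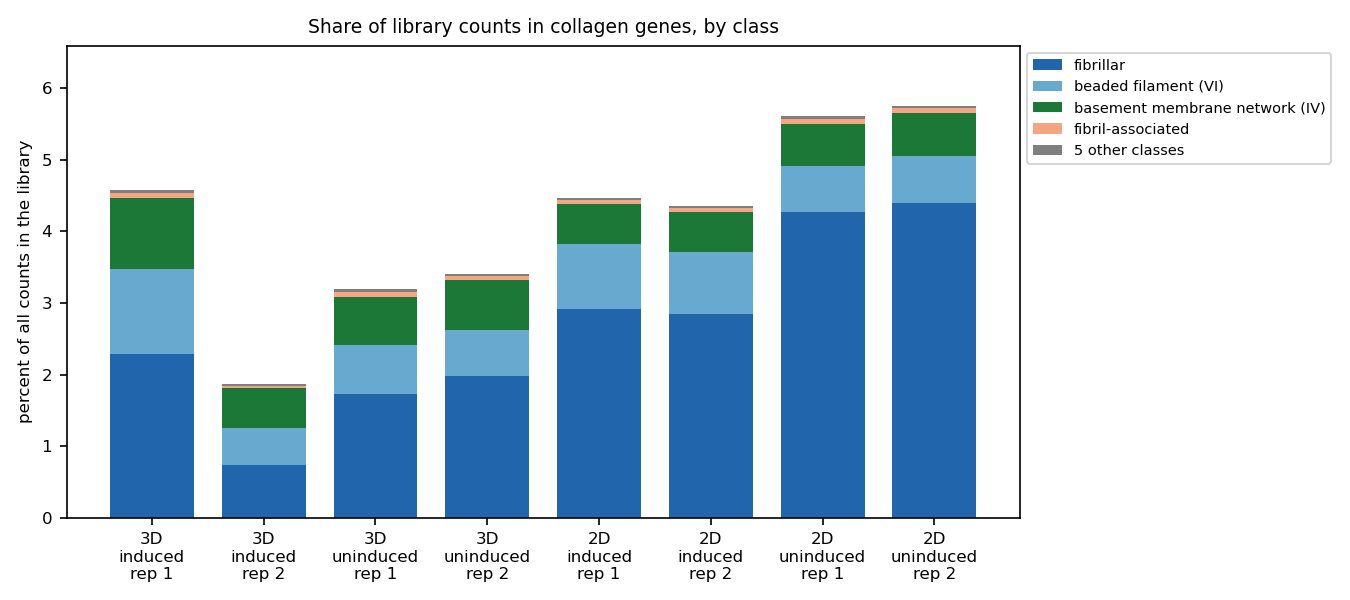
Percent of all counts held by collagen genes in each of the 8 libraries, stacked by class, with induced spheroids at the left and uninduced flat cultures at the right. The fibrillar part is tallest in uninduced flat cultures, and the induced spheroid libraries differ most within a group, at 4.59% and 1.86%.

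Within the collagen counts, fibrillar chains held the smaller part in spheroids and in induced cultures, and basement membrane chains the larger. Fibrillar chains made up 49.99% and 39.8% of collagen counts in induced spheroids, 54.1% and 57.9% in uninduced spheroids, 65.4% and 65.3% in induced flat cultures, and 76.3% and 76.3% in uninduced flat cultures. Basement membrane chains made up 21.8% and 30.1%, 21.4% and 20.4%, 12.8% and 13.0%, and 10.5% and 10.5% in the same order of groups. Spheroids and flat cultures did not overlap in either class, with or without induction. Beaded-filament chains made up 25.8% and 27.6% in induced spheroids, 21.24% and 19.0% in uninduced spheroids, 20.05% and 19.98% in induced flat cultures, and 11.4% and 11.4% in uninduced flat cultures. For these, induced and uninduced cultures did not overlap in either format. A share falls when another class rises, so these values are parts of 1 whole.

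Levels of different chains are given per kilobase of exon, as group means of CPM. In uninduced flat cultures Col1a2, Col1a1 and Col3a1 led, at 1646, 1302 and 1291 CPM per kb, ahead of Col6a1 at 613 and Col4a1 at 482. In induced flat cultures Col1a2, Col3a1 and Col1a1 again led, at 1120, 861 and 782 CPM per kb. In uninduced spheroids Col6a1, Col1a2, Col1a1, Col3a1 and Col4a1 lay within 510 to 524 CPM per kb, an order that their replicate spread does not resolve. This closeness rests on the lengths used. Before division by length Col1a2 was at 6486, Col3a1 at 5071, Col4a1 at 3803, Col1a1 at 3395 and Col6a1 at 2294 CPM there. In the 2 induced spheroid libraries Col4a1 was at 776 and 485 CPM per kb, Col6a1 at 764 and 446, Col1a1 at 698 and 180, Col1a2 at 657 and 177, and Col3a1 at 651 and 253. Per kilobase, Col4a1 and Col6a1 exceeded the 3 main fibril chains in both libraries, by little in replicate 1 and by more in replicate 2. That order rests on the lengths used. Before division by length, replicate 1 had Col1a2 at 8167, Col3a1 at 6394, Col4a1 at 5789, Col1a1 at 4580 and Col6a1 at 3347 CPM. In replicate 2 Col4a1 led at 3620 CPM, while Col6a1, at 1951, lay below Col3a1 at 2480 and Col1a2 at 2197. The length used for Col1a2 is the union of its annotated exons and exceeds that of its usual transcript. This lowers its value per kilobase in every group alike, and bears on its rank among the chains. The other lengths are exon unions as well, so ranks and ratios per length of the other chains carry the same limit.

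Between uninduced spheroids and uninduced flat cultures 3 collagen genes rose and 4 fell of the 27 tested, against 9.44% of all tested genes called in either direction (5.42% higher and 4.02% lower). Calls were made with edgeR's quasi-likelihood test, adjusted by Benjamini-Hochberg over all 15255 genes, and needed both an adjusted p below 0.05 and a 2-fold difference. Col7a1, Col11a2 and Col27a1 were higher, and Col11a1, Col8a1, Col14a1 and Col3a1 were lower. The median log2 fold change of the 27 was -0.37, against 0.03 over all tested genes. Between induced spheroids and induced flat cultures 5 rose (Col7a1, Col11a2, Col27a1, Col17a1 and Col9a3) and 3 fell (Col11a1, Col8a1 and Col23a1), against 12.4% of all tested genes in either direction (6.94% higher and 5.46% lower). The median of the 27 was -0.27, against 0.03. Spheroid and flat libraries did not overlap for 6 higher and 10 lower collagen genes with induction, against 63.2% of all tested genes (31.9% higher and 31.2% lower), and for 9 higher and 16 lower without it, against 73.3% (38.1% higher and 35.2% lower), so a lack of overlap in 1 gene is common here. With library totals as the only scaling, the median of all tested genes moved to 0.20 without induction and 0.17 with it, and 1172 genes were higher and 434 lower (uninduced) and 1391 and 610 (induced), against 827 and 613, and 1059 and 833, in the TMM-scaled fit. The collagen calls were then 5 higher and 3 lower in each of the comparisons. Fitted on the 4 induced libraries alone, 2 were higher (Col7a1 and Col11a2) and 1 was lower (Col11a1). In that fit 405 genes were called higher and 420 lower of all 14538 tested.

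**Figure D2:**
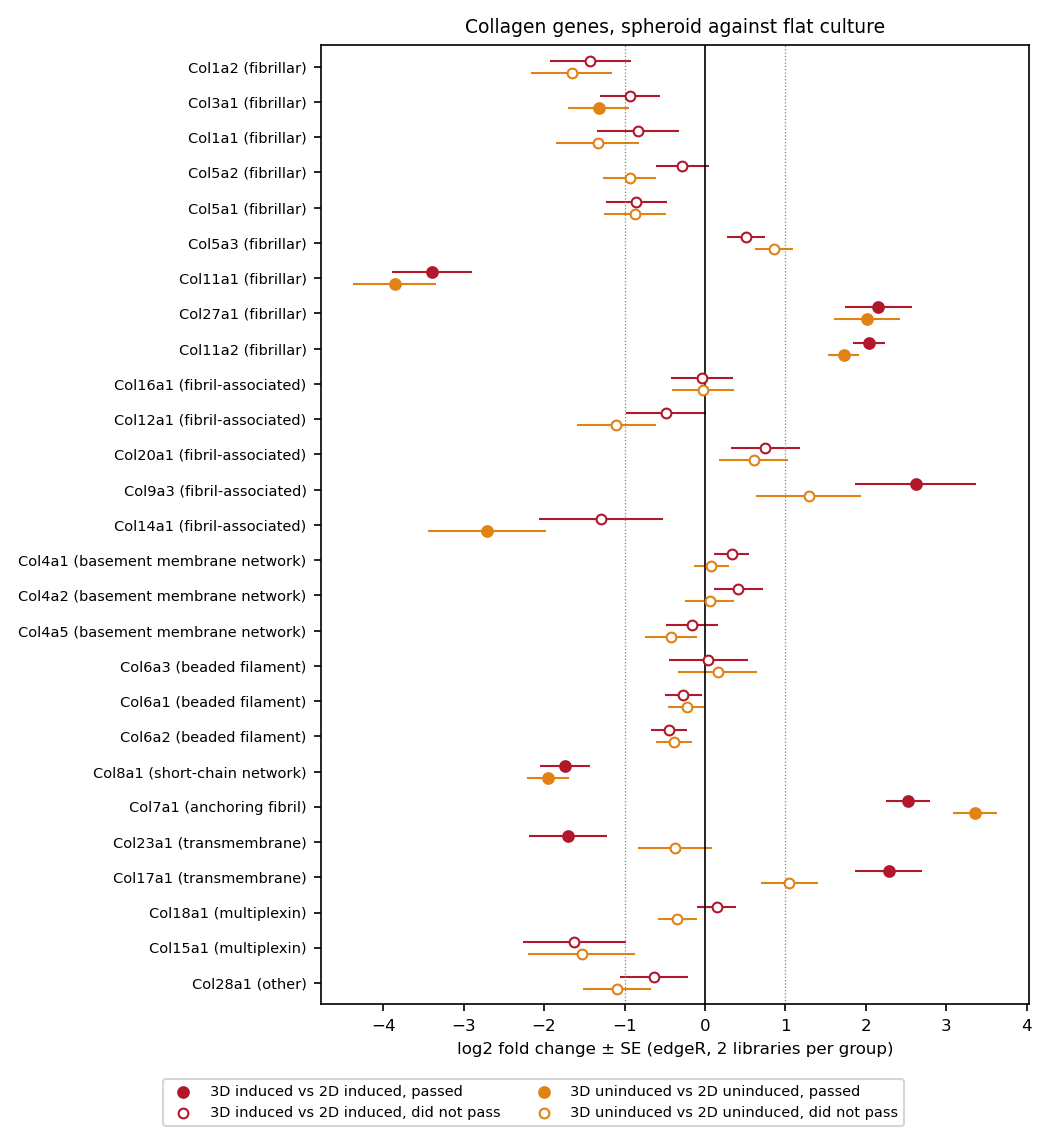
Log2 fold change with its standard error of the 27 tested collagen genes for induced spheroids against induced flat cultures and uninduced spheroids against uninduced flat cultures, edgeR, 2 libraries per group, with filled points where a gene was called. Col7a1, Col11a2 and Col27a1 lie to the right of the 2-fold line and Col11a1 and Col8a1 to the left of it in both comparisons.

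The chains of type XI collagen, a fibril-core collagen best known from cartilage, moved apart between the formats. Col11a1 read 43.8 and 12.0 CPM in induced spheroids, 22.6 and 18.9 CPM in uninduced spheroids, 295 and 288 CPM in induced flat cultures, and 303 and 299 CPM in uninduced flat cultures. Every spheroid library lay below every flat one. Col11a1 fell by 3.39 on the log2 scale with induction (SE 0.50, edgeR adjusted p = 0.0031) and fell by 3.86 without it (SE 0.51, edgeR adjusted p = 0.0029). Col11a2 read 48.7 and 33.7 CPM in induced spheroids, 37.7 and 33.0 CPM in uninduced spheroids, 9.92 and 10.1 CPM in induced flat cultures, and 10.6 and 10.8 CPM in uninduced flat cultures. Here every spheroid library lay above every flat one, at log2 fold changes of 2.04 with induction (SE 0.20, edgeR adjusted p = 0.00085) and 1.72 without it (SE 0.19, edgeR adjusted p = 0.0017). The ratio of Col11a1 to Col11a2, each per length, was 0.485 and 0.192 in induced spheroids, 0.324 and 0.309 in uninduced spheroids, 16.04 and 15.4 in induced flat cultures, and 15.4 and 15.0 in uninduced flat cultures. That ratio was added after the values were seen. Col11a1 and Col11a2 stayed called in both comparisons under each alternative and with each library left out.

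The windows from 250 bases before to 50 bases after the RefSeq start of both type XI genes (GRCm38.p6) are shown because these genes moved in opposite directions. The Col11a2 window lies wholly upstream of the gene as placed by GENCODE M21, the source of lengths here, which starts it at base 34039437. Capitals mark matches, on either strand, to the CCAAT box (CCAAT), the GC box (GGGCGG), the TATA box (TATAAA) and the core of the TEAD motif (GGAATG), and no match overlaps another.
Col11a1, chr3:114030290-114030589, plus strand: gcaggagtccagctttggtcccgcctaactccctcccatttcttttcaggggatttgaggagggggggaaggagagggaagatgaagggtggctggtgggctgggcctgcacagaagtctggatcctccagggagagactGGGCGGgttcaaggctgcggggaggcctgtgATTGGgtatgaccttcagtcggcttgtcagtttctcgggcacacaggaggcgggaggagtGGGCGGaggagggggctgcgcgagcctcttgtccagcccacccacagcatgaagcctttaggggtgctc
Col11a2, chr17:34038888-34039187, plus strand: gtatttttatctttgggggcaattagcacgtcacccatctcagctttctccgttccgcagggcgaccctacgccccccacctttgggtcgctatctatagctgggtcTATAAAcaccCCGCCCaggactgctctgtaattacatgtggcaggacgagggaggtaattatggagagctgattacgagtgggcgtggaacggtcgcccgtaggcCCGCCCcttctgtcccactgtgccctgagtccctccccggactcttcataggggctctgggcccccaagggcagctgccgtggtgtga
The Col11a1 window held CCAAT at 1 position and GGGCGG at 2, and the Col11a2 window held TATAAA at 1 position and GGGCGG at 2. Of 32544 RefSeq windows of this length, 37.4% held CCAAT, 35.9% GGGCGG, 13.6% TATAAA and 14.6% GGAATG. Among 29 windows of 27 kept collagen genes, 10 held CCAAT (34.5%), 18 GGGCGG (62.1%), 4 TATAAA (13.8%) and 5 GGAATG (17.2%). A match describes the letters only.

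Of the main fibril chains Col3a1 fell in uninduced spheroids, while Col1a1 and Col1a2 did not pass the test. Col3a1, the type III chain, read 6394 and 2480 CPM in induced spheroids, 4777 and 5366 CPM in uninduced spheroids, 8572 and 8323 CPM in induced flat cultures, and 12353 and 12983 CPM in uninduced flat cultures. It fell by 1.32 on the log2 scale without induction (SE 0.38, edgeR adjusted p = 0.044). Col1a2 read 8167 and 2197 CPM, 6015 and 6957 CPM, 14045 and 13780 CPM, and 20167 and 20731 CPM in induced spheroids, uninduced spheroids, induced flat cultures and uninduced flat cultures. Col1a1, its partner in type I collagen, read 4580 and 1184 CPM, 2966 and 3823 CPM, 5260 and 5008 CPM, and 8506 and 8587 CPM in that order. All 3 were lower in every spheroid library than in every flat library of the same induction state. Without induction the log2 fold change was -1.66 for Col1a2 (SE 0.50, edgeR adjusted p = 0.053) and -1.33 for Col1a1 (SE 0.51, edgeR adjusted p = 0.10). With induction it was -0.93 for Col3a1 (SE 0.37, edgeR adjusted p = 0.098), -1.42 for Col1a2 (SE 0.50, edgeR adjusted p = 0.067) and -0.83 for Col1a1 (SE 0.51, edgeR adjusted p = 0.25). These calls turned on single libraries. The induced spheroid libraries enter the uninduced comparison only through the shared spread. Leaving out either of them raised the number called higher and lower there, among collagen genes and over all tested genes alike. Leaving out either library of any other group reduced the number called lower, again over all tested genes as well, and Col3a1 was then not called. Without induced spheroid replicate 1 the log2 fold changes with induction were -1.76 for Col3a1, -2.66 for Col1a2 and -2.11 for Col1a1. Without replicate 2 they were -0.40, -0.77 and -0.16.

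Summed markers of preadipocytes and fibroblasts (6 genes, all detected) moved with these chains as a sum, at 2779 and 1765 CPM in induced spheroids, 3289 and 3523 CPM in uninduced spheroids, 4706 and 4767 CPM in induced flat cultures, and 9077 and 9303 CPM in uninduced flat cultures. Dlk1 and Dcn held most of each sum. Pdgfrb ran the other way between formats, at 412 and 465 CPM in uninduced spheroids against 360 and 372 CPM in uninduced flat cultures. With induction it read 422 and 294 CPM in spheroids against 277 and 267 CPM. Pdgfra overlapped between the uninduced formats. Markers of smooth muscle and myofibroblasts (5 genes, all detected) summed to 64.2 and 25.9 CPM, 43.5 and 54.5 CPM, 86.8 and 81.1 CPM, and 285 and 290 CPM in the same order of groups, most of it from Acta2. The part of these markers in the collagen levels was not tested. Of the chondrocyte list 3 of 6 genes had 10 counts or more, of the endothelial list 2 of 5, of the osteoblast list 3 of 5 and of the macrophage list 2 of 5, with Ptprc and Adgre1 at 0 in every library. Summed endothelial markers stayed between 0.0893 and 1.99 CPM in all libraries, macrophage markers between 7.46 and 24.8 CPM, and osteoblast markers between 39.1 and 76.9 CPM. Chondrocyte markers summed to 114 and 92.8 CPM in induced spheroids, 147 and 118 CPM in uninduced spheroids, 59.6 and 67.2 CPM in induced flat cultures, and 84.8 and 79.1 CPM in uninduced flat cultures. Nearly all of these sums came from Sox9.

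Col27a1, a fibrillar chain of cartilage, was higher in spheroids. It read 173 and 61.4 CPM in induced spheroids, 131 and 115 CPM in uninduced spheroids, 27.5 and 25.0 CPM in induced flat cultures, and 28.6 and 32.4 CPM in uninduced flat cultures. Every spheroid library exceeded every flat one, by 2.15 on the log2 scale with induction (SE 0.42, edgeR adjusted p = 0.0086) and 2.01 without it (SE 0.41, edgeR adjusted p = 0.014). The call was lost when either flat library of the comparison was left out (adjusted p 0.065 and 0.077 with induction, 0.11 and 0.091 without it) and, without induction, when either spheroid library was left out (0.089 and 0.063).

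Type V chains, which set fibril diameter, did not reach a call. Col5a1 read 1132 and 413 CPM in induced spheroids, 887 and 982 CPM in uninduced spheroids, 1420 and 1368 CPM in induced flat cultures, and 1679 and 1731 CPM in uninduced flat cultures. Col5a2 read 1216 and 529 CPM, 891 and 1086 CPM, 1078 and 1048 CPM, and 1884 and 1899 CPM in that order. Col5a3 ran the other way, at 359 and 202 CPM, 277 and 246 CPM, 201 and 193 CPM, and 146 and 143 CPM. For Col5a3 every spheroid library lay above both flat libraries of its induction state, and the uninduced difference of 0.85 on the log2 scale (SE 0.24, edgeR adjusted p = 0.039) passed the p threshold but not the 2-fold one. Without induction the log2 fold change was -0.87 for Col5a1 (SE 0.38, edgeR adjusted p = 0.15) and -0.94 for Col5a2 (SE 0.33, edgeR adjusted p = 0.082).

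Col7a1, whose product forms the fibrils that anchor a basement membrane to the matrix under it, had the largest rise of the 27 without induction. It read 14.1 and 20.5 CPM in induced spheroids, 33.6 and 29.1 CPM in uninduced spheroids, 2.77 and 3.22 CPM in induced flat cultures, and 3.63 and 2.41 CPM in uninduced flat cultures. The lowest spheroid library was several times the highest flat one. The difference was 5.74-fold with induction (log2 2.52, SE 0.28, edgeR adjusted p = 0.0012) and 10.2-fold without it (log2 3.35, SE 0.27, edgeR adjusted p = 0.00057). Both calls held under each alternative and with each library left out. Col8a1, a short chain that builds hexagonal networks in vessel walls and Descemet's membrane, went down instead. It read 1.22 and 0.761 CPM in induced spheroids, 3.24 and 3.13 CPM in uninduced spheroids, 3.39 and 3.22 CPM in induced flat cultures, and 14.0 and 10.6 CPM in uninduced flat cultures. It fell by 1.74 on the log2 scale with induction (SE 0.31, edgeR adjusted p = 0.0063, but 0.26 with limma-voom) and fell by 1.95 without it (SE 0.27, edgeR adjusted p = 0.0031).

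The windows around the starts of these genes are shown as those of a collagen that differed between formats in both induction states (Col7a1) and 1 that was called in all 4 direct comparisons (Col8a1), with the same marks.
Col7a1, chr9:108953336-108953635, plus strand: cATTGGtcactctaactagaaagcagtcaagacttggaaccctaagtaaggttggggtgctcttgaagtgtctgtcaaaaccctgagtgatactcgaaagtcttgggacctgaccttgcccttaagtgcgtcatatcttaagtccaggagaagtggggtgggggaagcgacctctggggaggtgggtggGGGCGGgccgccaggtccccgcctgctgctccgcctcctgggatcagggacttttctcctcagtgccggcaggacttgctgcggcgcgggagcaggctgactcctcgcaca
Col8a1, chr16:57754688-57754987, minus strand: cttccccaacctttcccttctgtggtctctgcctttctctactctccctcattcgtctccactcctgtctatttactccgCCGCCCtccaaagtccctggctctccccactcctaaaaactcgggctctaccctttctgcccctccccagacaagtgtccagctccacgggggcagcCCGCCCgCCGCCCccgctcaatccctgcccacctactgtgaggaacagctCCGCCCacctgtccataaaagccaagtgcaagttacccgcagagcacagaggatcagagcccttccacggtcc
The Col7a1 window held 1 match each to CCAAT and GGGCGG, and the Col8a1 window held 4 to GGGCGG.

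**Figure D3:**
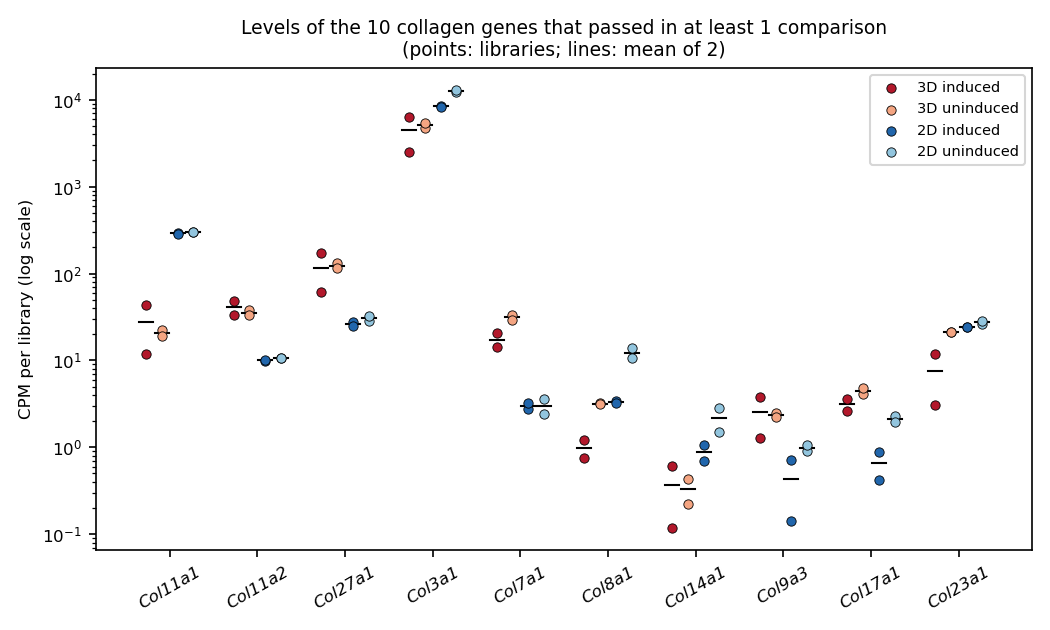
CPM of each library on a log scale for the 10 collagen genes called in at least 1 comparison, with induced spheroids, uninduced spheroids, induced flat cultures and uninduced flat cultures side by side and lines at the mean of 2. The spheroid and flat points of Col11a1, Col11a2, Col27a1 and Col7a1 do not overlap.

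Basement membrane chains of type IV were abundant in all 4 groups and none was called. Col4a1 read 5789 and 3620 CPM in induced spheroids, 3716 and 3889 CPM in uninduced spheroids, 3754 and 3731 CPM in induced flat cultures, and 3549 and 3642 CPM in uninduced flat cultures. Leaving aside induced spheroid replicate 1, all libraries lay between 3549 and 3889 CPM. Col4a2, its partner in the common type IV trimer, read 3261 and 1510 CPM, 2201 and 2234 CPM, 1805 and 1777 CPM, and 2098 and 2159 CPM in that order. Col4a5 read 610 and 259 CPM, 405 and 424 CPM, 489 and 483 CPM, and 548 and 562 CPM. In each comparison 0 of the 3 had an unadjusted p under 0.05 by edgeR. With induction the log2 fold change was 0.33 for Col4a1 (SE 0.21, edgeR adjusted p = 0.28) and 0.41 for Col4a2 (SE 0.30, edgeR adjusted p = 0.34), and without induced spheroid replicate 1 these turned to -0.04 and -0.24. A p that misses the threshold does not show that the levels were alike.

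Col4a1 and Col4a2 lie head to head on chromosome 8, and their start windows share 78 bases, which is why both are shown as they read on their own strands.
Col4a1, chr8:11312777-11313076, minus strand: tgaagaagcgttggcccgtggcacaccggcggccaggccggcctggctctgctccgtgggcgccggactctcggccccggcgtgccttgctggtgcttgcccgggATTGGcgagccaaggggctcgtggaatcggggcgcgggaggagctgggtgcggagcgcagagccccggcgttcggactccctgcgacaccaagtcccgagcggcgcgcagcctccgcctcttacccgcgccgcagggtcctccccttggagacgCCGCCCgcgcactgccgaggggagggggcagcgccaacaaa
Col4a2, chr8:11312555-11312854, plus strand: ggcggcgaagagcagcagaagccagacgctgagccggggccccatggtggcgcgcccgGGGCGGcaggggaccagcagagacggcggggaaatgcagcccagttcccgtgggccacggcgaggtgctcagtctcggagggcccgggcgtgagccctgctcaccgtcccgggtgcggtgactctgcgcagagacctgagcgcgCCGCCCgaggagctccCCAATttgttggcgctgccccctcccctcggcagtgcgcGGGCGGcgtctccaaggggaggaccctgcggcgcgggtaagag
The Col4a1 window held 1 match each to CCAAT and GGGCGG, and the Col4a2 window held 1 to CCAAT and 3 to GGGCGG. The annotated exons of the genes shared 22 bases on opposite strands. The ratio of Col4a1 to Col4a2, each per length, was 1.57 and 2.13 in induced spheroids, 1.50 and 1.54 in uninduced spheroids, 1.84 and 1.86 in induced flat cultures, and 1.50 and 1.50 in uninduced flat cultures. Col4a1 thus exceeded Col4a2 more in induced than in uninduced cultures, without overlap in either format.

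Type VI chains, the beaded filaments, were as abundant, and they were not called either. Col6a1 read 3347 and 1951 CPM in induced spheroids, 2194 and 2394 CPM in uninduced spheroids, 3218 and 3167 CPM in induced flat cultures, and 2675 and 2694 CPM in uninduced flat cultures. Col6a2 read 2500 and 1505 CPM, 1517 and 1648 CPM, 2739 and 2719 CPM, and 2039 and 2088 CPM in that order. Col6a3, the largest chain, whose C-terminal fragment is endotrophin, read 5554 and 1485 CPM, 2571 and 2082 CPM, 3521 and 3313 CPM, and 2026 and 2142 CPM. All 3 were higher in both induced flat libraries than in both uninduced ones, whereas the induced spheroid libraries lay on either side of the uninduced spheroids. The ratio of Col6a1 to Col6a2 per length stayed between 2.21 and 2.76 in all 8 libraries, and that of Col6a3 to Col6a2, added after the values were seen, ranged from 0.686 in induced spheroid replicate 2 to 1.55 in replicate 1. As a ratio of counts, Col6a1 to Col6a2 lay between 1.165 and 1.452. The size of both ratios thus rests on the exon unions used, 8326 bases for Col6a2 and 4380 for Col6a1.

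Fibril-associated chains, which sit on the surface of fibrils, gave 1 call in each format comparison. Col14a1 read 0.609 and 0.117 CPM in induced spheroids, 0.221 and 0.436 CPM in uninduced spheroids, 1.07 and 0.700 CPM in induced flat cultures, and 2.84 and 1.51 CPM in uninduced flat cultures. It fell by 2.71 on the log2 scale in uninduced spheroids (SE 0.73, edgeR adjusted p = 0.036), at a level of a few counts, and the call was lost when any library other than those of induced spheroids was left out (adjusted p 0.070 to 0.23). Col9a3, a cartilage chain, read 3.79 and 1.29 CPM in induced spheroids, 2.51 and 2.25 CPM in uninduced spheroids, 0.715 and 0.140 CPM in induced flat cultures, and 0.896 and 1.06 CPM in uninduced flat cultures. It was higher by 2.62 on the log2 scale in induced spheroids (SE 0.75, edgeR adjusted p = 0.035). That call was lost without any 1 library except induced spheroid replicate 2 (adjusted p 0.053 to 0.19), and 6.07% of the exon length of Col9a3 is shared with Tcfl5 on the opposite strand. Col12a1, the tension-responsive chain of tendon and skin, read 87.0 and 22.1 CPM, 87.1 and 85.1 CPM, 78.4 and 73.8 CPM, and 179 and 191 CPM in induced spheroids, uninduced spheroids, induced flat cultures and uninduced flat cultures. Col16a1 read 538 and 191 CPM, 563 and 504 CPM, 376 and 369 CPM, and 542 and 541 CPM in that order. Uninduced flat cultures had about the Col16a1 level of uninduced spheroids but the highest Col12a1 of all groups. Col20a1 read 5.77 to 18.2 CPM and Col28a1 2.52 to 10.9 CPM over the 8 libraries, and neither was called.

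The transmembrane collagens Col17a1 and Col23a1 were called in opposite directions in induced spheroids. Col17a1, a hemidesmosome protein of epithelia, read 2.64 and 3.63 CPM in induced spheroids, 4.06 and 4.80 CPM in uninduced spheroids, 0.893 and 0.420 CPM in induced flat cultures, and 2.29 and 1.96 CPM in uninduced flat cultures. It was higher by 2.28 on the log2 scale in induced spheroids (SE 0.41, edgeR adjusted p = 0.0068), a call lost without induced flat replicate 2 (adjusted p 0.062). Col23a1 read 12.0 and 3.04 CPM in induced spheroids, 21.3 and 21.01 CPM in uninduced spheroids, 24.5 and 23.9 CPM in induced flat cultures, and 26.2 and 28.6 CPM in uninduced flat cultures. It fell by 1.70 on the log2 scale in induced spheroids (SE 0.49, edgeR adjusted p = 0.035), a call lost when any library of the other 3 groups was left out (adjusted p 0.066 to 0.13). The multiplexins, which carry heparan or chondroitin sulfate in basement membrane zones, were not called. Col15a1 read 57.2 and 10.5 CPM in induced spheroids, 17.5 and 8.94 CPM in uninduced spheroids, 108 and 100 CPM in induced flat cultures, and 37.9 and 38.6 CPM in uninduced flat cultures. In both induction states every spheroid library of Col15a1 lay below both flat ones. Col18a1, the source of endostatin, read 324 and 176 CPM, 220 and 206 CPM, 234 and 219 CPM, and 265 and 277 CPM in that order.

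Induction changed few collagen genes past the thresholds. In flat culture none of the 27 rose and 2 fell, Col8a1 and Col17a1, against 4.52% of all tested genes called in either direction (3.17% higher and 1.34% lower) by edgeR. At an unadjusted p under 0.05 edgeR had 0 higher and 4 lower, as had DESeq2, whereas limma-voom had 5 higher and 14 lower and edgeR on the 4 flat libraries alone 5 and 16. The share of all tested genes at an unadjusted p was not taken, here or for spheroids below. These counts therefore describe the 27 and do not set them apart from other genes. The median log2 fold change of the 27 was -0.25, against 0.00 over all tested genes. In spheroids none rose and only Col8a1 fell, against 0.911% of all tested genes (0.583% higher and 0.328% lower), with 0 higher and 3 lower at an unadjusted p under 0.05 by edgeR and by DESeq2, 0 and 4 by limma-voom, and a median of 0.07 against 0.04. Col8a1 fell by 1.90 on the log2 scale in flat culture (SE 0.27, edgeR adjusted p = 0.0052) and fell by 1.69 in spheroids (SE 0.31, edgeR adjusted p = 0.050, under the threshold before rounding). The flat call was lost without uninduced flat replicate 1 or either induced flat library (adjusted p 0.065 to 0.077). The spheroid call was lost without any library of the other 3 groups (adjusted p 0.12 to 0.28), on the 4 spheroid libraries alone (0.52) and with limma-voom (0.9997). Col17a1 fell by 1.73 on the log2 scale in flat culture (SE 0.42, edgeR adjusted p = 0.045) and the call was lost without any library other than those of induced spheroids (adjusted p 0.091 to 0.28).

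**Figure D4:**
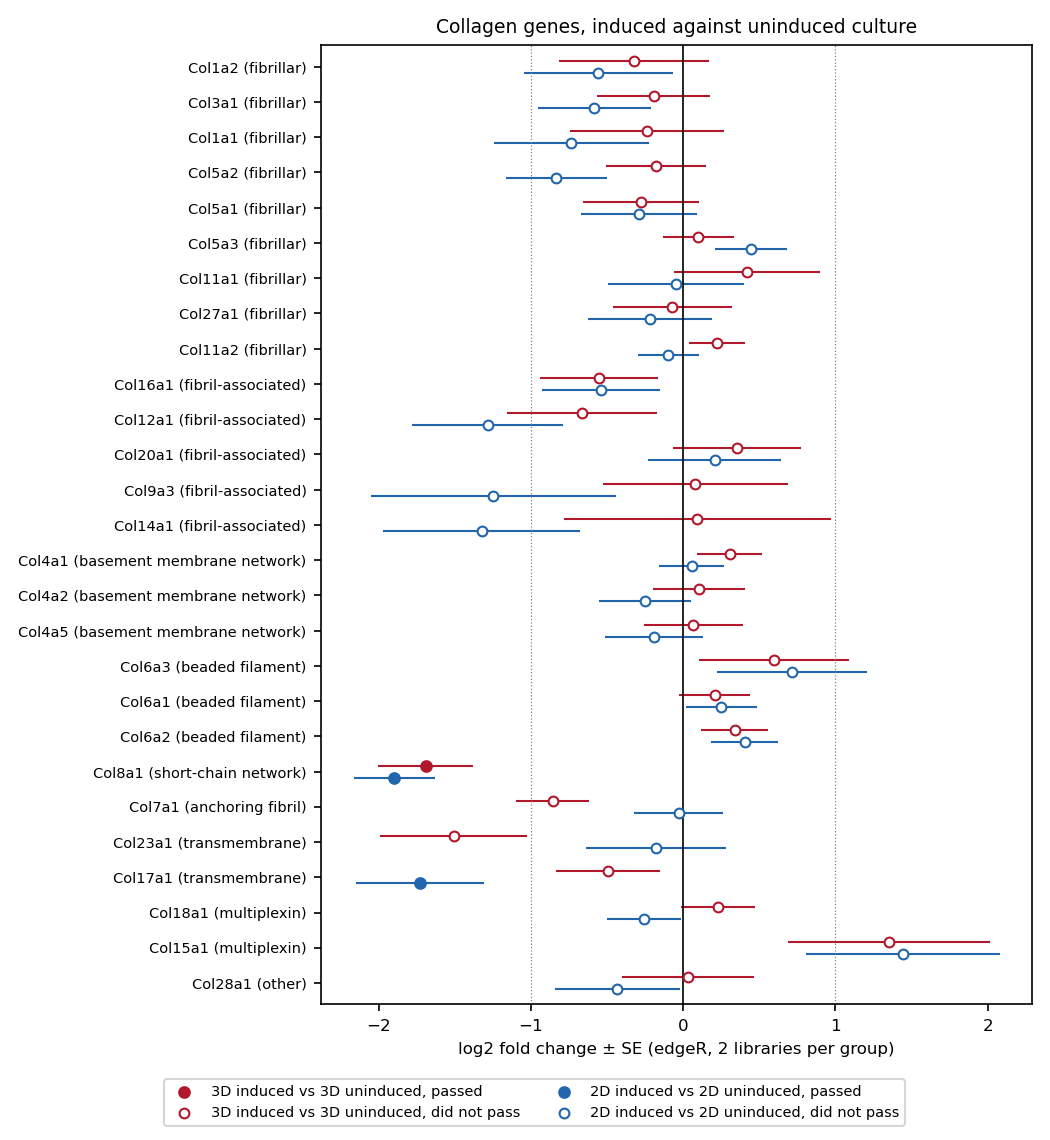
Log2 fold change with its standard error of the 27 tested collagen genes for induction in spheroids and induction in flat culture, edgeR, 2 libraries per group, with filled points where a gene was called. Col8a1 lies to the left of the 2-fold line in both, and Col15a1 lies to the right of 0 in both without a call.

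In flat culture the 2 libraries of each group were close, and 26 of the 27 genes did not overlap between induced and uninduced cultures, 7 of them higher and 19 lower. Over all tested genes 69.6% did not overlap in this comparison, 35.1% higher and 34.5% lower. The 7 higher were Col4a1, Col6a1, Col6a2, Col6a3, Col20a1, Col5a3 and Col15a1. Of the fibrillar chains 8 of 9 were lower, with Col1a1 at -0.74 (SE 0.51, edgeR adjusted p = 0.44), Col1a2 at -0.56 (SE 0.49, edgeR adjusted p = 0.55) and Col3a1 at -0.58 (SE 0.37, edgeR adjusted p = 0.40) on the log2 scale. Col12a1 was at -1.28 (SE 0.49, edgeR adjusted p = 0.17), Col14a1 at -1.32 (SE 0.65, edgeR adjusted p = 0.27) and Col15a1 at 1.45 (SE 0.63, edgeR adjusted p = 0.22). Fitted on the 4 flat libraries alone, 4 fell (Col8a1, Col17a1, Col12a1 and Col14a1) and Col15a1 rose. There Col1a1, Col1a2 and Col3a1 missed only the 2-fold threshold (log2 -0.74, -0.56 and -0.59, edgeR adjusted p = 3.9e-15, 1.9e-13 and 3.1e-13). Col6a3 did so in the other direction (log2 0.71, edgeR adjusted p = 1.2e-13). The share of all tested genes passing that p alone was not taken. In that fit 627 genes were called higher and 586 lower of all 14251 tested. In spheroids 4 of the 27 did not overlap, all lower with induction: Col7a1, Col8a1, Col17a1 and Col23a1. Over all tested genes 32.6% did not overlap there, 18% higher and 14.6% lower, so 4 of 27 is near the share of all genes that were lower. Col7a1 was at -0.86 (SE 0.24, edgeR adjusted p = 0.16) and Col23a1 at -1.51 (SE 0.48, edgeR adjusted p = 0.22) on the log2 scale.

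Read against uninduced spheroids, the induced spheroid libraries gave opposite accounts of most collagen genes. For 19 of the 27 (70.4%) replicate 1 lay above and replicate 2 below both uninduced libraries, against 17.2% of all tested genes. The fitted log2 fold change was below 0 for all 27 without replicate 1, and above 0 for 23 and below 0 for 4 without replicate 2. In each of these fits 1 library stood alone for its group with the spread of the others, so effect sizes alone are given here. Col8a1 was at -2.05 without replicate 1 and -1.38 without replicate 2. Col23a1 was at -2.79 and -0.82, and Col7a1 at -0.61 and -1.16, in that order. Col12a1, at a log2 fold change of -0.66 (SE 0.49, edgeR adjusted p = 0.68) with both libraries, was at -1.96 without replicate 1 and 0.01 without replicate 2. Col15a1, at 1.35 (SE 0.66, edgeR adjusted p = 0.48) with both, was at -0.32 without replicate 1 and 2.11 without replicate 2. Replicate 2 was below replicate 1 for 25 of the 27 genes, and at least 2-fold below for 18, with a median log2 ratio of -1.43. Over all tested genes with counts in both libraries, 50.8% were lower in replicate 2 and 10.2% at least 2-fold lower, with a median of -0.01. Col7a1 (0.54) and Col17a1 (0.46) were the 2 exceptions. In uninduced spheroids, induced flat cultures and uninduced flat cultures the median of the same ratio was -0.02, -0.04 and 0.04. By class the median was -1.46 for fibrillar, -1.11 for basement membrane, -0.78 for beaded-filament and -1.56 for fibril-associated chains.

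Other values differed between the same libraries. Fabp4 and the other 4 adipocyte markers summed to 1510 CPM in induced spheroid replicate 1 and 2614 CPM in replicate 2, against 45.4 and 46.4 CPM in uninduced spheroids, and to 6039 and 5579 CPM in induced flat cultures against 25.3 and 20.7 CPM in uninduced ones. Gm26917 and Gm42418, loci that collect ribosomal RNA reads, held 0.106% of counts in induced spheroid replicate 1 and 1.13% in replicate 2, 0.279% and 0.255% in uninduced spheroids, 0.132% and 0.155% in induced flat cultures, and 0.121% and 0.147% in uninduced flat cultures. Their part in the collagen difference was not tested.

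**Figure D5:**
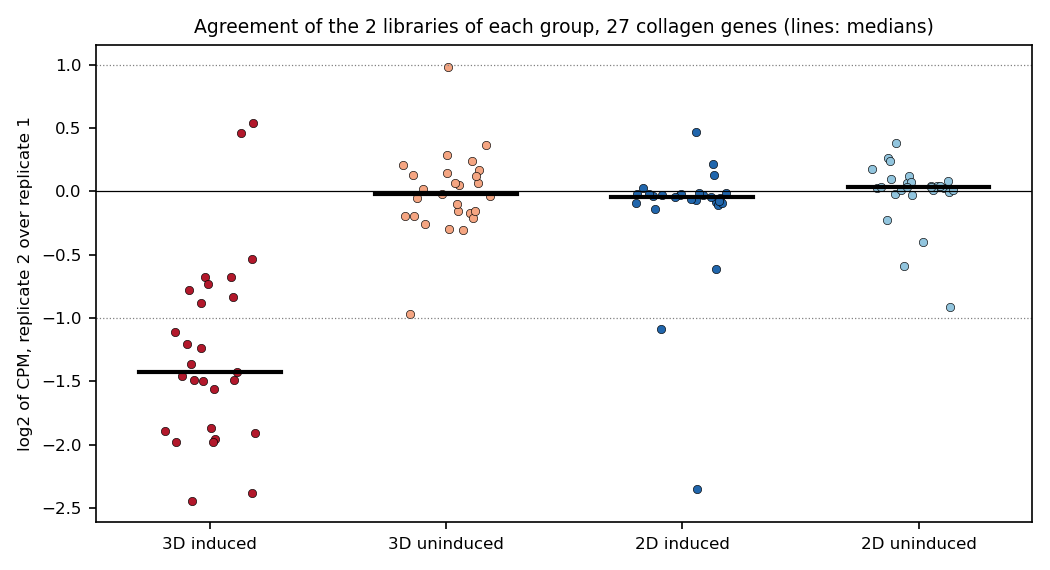
Log2 ratio of CPM in replicate 2 over replicate 1 for the 27 tested collagen genes in induced spheroids, uninduced spheroids, induced flat cultures and uninduced flat cultures, with lines at the medians and dotted lines at 2-fold. The induced spheroid median lies at -1.43 and those of the other groups between -0.04 and 0.04, while the median over all tested genes was -0.01 in induced spheroids.

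The effect of induction on collagen genes was compared between formats by the interaction, in which none of the 27 was called, against 0.38% of all tested genes (0.0393% higher and 0.341% lower). At an unadjusted p under 0.05 edgeR had 0 of the 27, DESeq2 1 and limma-voom 1, and the share of all tested genes at that threshold was not taken. The standard errors of these interaction terms ranged from 0.27 for Col11a2 to 1.10 for Col14a1 on the log2 scale. Leaving out either induced spheroid library raised the number of interaction calls, among collagen genes and over all tested genes alike. A gene called in 1 format and not in the other is thus not shown to respond differently.

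Partner chains of 1 collagen kept their ratios more closely than their levels, with exceptions. The ratio of Col1a1 to Col1a2, each per length, was 1.06 and 1.02 in induced spheroids, 0.934 and 1.04 in uninduced spheroids, 0.709 and 0.688 in induced flat cultures, and 0.799 and 0.784 in uninduced flat cultures. Every spheroid library exceeded every flat one, and the long exon union of Col1a2 raises all 8 values alike. The ratio held in induced spheroids although the levels of both genes differed by more than 3-fold between the libraries. The ratio of Col3a1 to Col1a1 was 0.933 and 1.40 in induced spheroids and lay between 0.938 and 1.11 in the other 6 libraries. The ratio of Col5a1 to Col5a2 was 1.05 and 0.882 in induced spheroids, 1.13 and 1.02 in uninduced spheroids, 1.49 and 1.48 in induced flat cultures, and 1.01 and 1.03 in uninduced flat cultures, so only induced flat cultures stood apart. The ratio of Col4a1 to Col1a1, added after the values were seen, was 1.11 and 2.69, 1.10 and 0.894, 0.628 and 0.655, and 0.367 and 0.373 in that order. It was higher in every spheroid library than in every flat one. These ratios were not tested.

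Genes that fold, process, cross-link, bind or break down collagen were read from 79 genes in 7 lists, of which 72 were tested. Between formats, 6 rose and 15 fell without induction, against 9.44% of all tested genes called, and 4 rose and 13 fell with it, against 12.4%. The median log2 fold change of the 72 was -0.38 without induction and -0.33 with it, against 0.03 over all tested genes in both. With induction 1 rose and 5 fell in flat culture, against 4.52% of all tested genes called, and the 4 called in spheroids all fell, against 0.911%. Proteins that coat fibrils and cross-linking enzymes made up 10 of those that fell in each format comparison. These calls come from the reported fit alone, and leaving out libraries was not run for them. Of 12 fibril partners 7 were called in both format comparisons, all lower, at a median log2 fold change of -1.17 with induction and -1.36 without it. Ogn (osteoglycin) read 2.44 and 3.51 CPM in induced spheroids, 2.14 and 3.13 CPM in uninduced spheroids, 275 and 312 CPM in induced flat cultures, and 634 and 704 CPM in uninduced flat cultures. Fmod (fibromodulin), which binds type I fibrils, read 1.15 and 0.702 CPM, 1.33 and 1.09 CPM, 18.6 and 19.0 CPM, and 28.5 and 27.6 CPM in that order. Prelp, which anchors basement membranes to connective tissue, fell by 3.43 with induction (SE 0.33, edgeR adjusted p = 0.00085) and fell by 3.37 without it (SE 0.33, edgeR adjusted p = 0.0011) on the log2 scale, and 9.68% of its exon length lies opposite Gm15851.

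Of 6 cross-linking enzymes 3 were called in both format comparisons, all lower, namely Lox, Loxl2 and Tgm2. Of all tested genes 9.44% were called between formats without induction and 12.4% with it, in either direction. Lox, the lysyl oxidase that starts cross-linking of fibrillar collagen and is named here after its values were seen, read 707 and 403 CPM in induced spheroids, 561 and 946 CPM in uninduced spheroids, 2317 and 2472 CPM in induced flat cultures, and 3299 and 3342 CPM in uninduced flat cultures. It fell by 2.11 with induction (SE 0.32, edgeR adjusted p = 0.0034) and fell by 2.14 without it (SE 0.32, edgeR adjusted p = 0.0041) on the log2 scale. Tgm2, a transglutaminase, read 1.08 and 0.644 CPM, 0.442 and 0.582 CPM, 9.38 and 10.0 CPM, and 3.09 and 4.82 CPM in induced spheroids, uninduced spheroids, induced flat cultures and uninduced flat cultures, and it was the 1 listed gene that rose with induction in flat culture (log2 1.31, SE 0.31, edgeR adjusted p = 0.041). Loxl4 fell with induction in spheroids, at 17.5 and 15.4 CPM against 46.4 and 34.2 CPM. Of 17 tested folding and modification genes 1 was called in the format comparisons, while 6 without induction and 7 with it had an adjusted p under 0.05 by edgeR, called or not. Without induction these were Plod2, at a log2 fold change of 0.58, and P4ha1, P4hb, Crtap, Ppib and Serpinh1, at -0.42 to -0.93. At that adjusted p, with no minimum fold, 1664 of all 15255 tested genes were higher and 1551 lower without induction. With induction 2250 were higher and 2129 lower. The called gene was P4ha1, a prolyl 4-hydroxylase subunit, at 243 and 274 CPM in induced spheroids against 530 and 536 CPM in induced flat cultures (log2 -1.04, SE 0.12, edgeR adjusted p = 0.0016).

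Of 11 tested collagenases and their inhibitors 3 rose and 2 fell in uninduced spheroids against flat cultures, the 2 called in induced spheroids both rose, and with induction all called ones fell, 4 in flat culture and 2 in spheroids. Of all tested genes 9.44%, 12.4%, 4.52% and 0.911% were called in those comparisons, in that order. The same shares belong beside the counts of the other lists below. Mmp13, an interstitial collagenase, read 85.1 and 90.5 CPM in induced spheroids, 91.2 and 71.0 CPM in uninduced spheroids, 12.5 and 12.0 CPM in induced flat cultures, and 32.4 and 33.2 CPM in uninduced flat cultures. It rose in spheroids by 2.84 with induction (SE 0.15, edgeR adjusted p = 9.5e-05) and 1.31 without it (SE 0.14, edgeR adjusted p = 0.0015) on the log2 scale, fell by 1.42 with induction in flat culture (SE 0.15, edgeR adjusted p = 0.0015), and was the 1 gene of the 72 with a called interaction (1.53, SE 0.20, edgeR adjusted p = 0.030). Mmp8, a neutrophil collagenase, read 2.44 and 2.69 CPM, 11.5 and 21.2 CPM, 0.983 and 1.05 CPM, and 4.73 and 5.20 CPM in induced spheroids, uninduced spheroids, induced flat cultures and uninduced flat cultures. It passed in all 4 direct comparisons, higher in spheroids and lower with induction. Timp1, an inhibitor of matrix metalloproteinases, read 141 and 151 CPM, 327 and 339 CPM, 77.0 and 76.5 CPM, and 89.3 and 94.6 CPM in that order. It rose in uninduced spheroids (log2 1.86, SE 0.10, edgeR adjusted p = 0.00014) and fell with induction in spheroids (log2 -1.19, SE 0.10, edgeR adjusted p = 0.0026). Timp3 fell with induction in flat culture to 16.6 and 16.7 CPM, against 175 and 163 CPM, and 21.3% of its exon length lies opposite Syn3. Ctsk, a collagen-degrading cathepsin, fell there to 42.3 and 43.5 CPM, against 91.9 and 89.8 CPM. Of 8 tested secretion genes 1 fell between formats without induction, and of 6 processing enzymes and enhancers 1 rose and 1 fell in each format comparison. Of 12 tested receptors 2 rose and 1 fell without induction, and 1 rose and 1 fell with it. Adgrg1, which binds type III collagen, rose in uninduced spheroids to 25.7 and 23.4 CPM, against 3.53 and 3.84 CPM in uninduced flat cultures (log2 2.74, SE 0.21, edgeR adjusted p = 0.0004). Dpt, dermatopontin, fell with induction in spheroids to 326 and 380 CPM, against 907 and 711 CPM.

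The 8 collagen genes with at least 10 counts that were not tested held 11 to 45 counts over all 8 libraries. Col24a1, a fibrillar chain, had 5 and 0 counts in induced spheroids, 7 and 8 in uninduced spheroids, 0 and 0 in induced flat cultures, and 1 and 1 in uninduced flat cultures. Col8a2, the partner of Col8a1, had 5 and 11, 8 and 11, 0 and 3, and 6 and 1 counts in that order. Col2a1, the main fibrillar collagen of cartilage, summed to 13 counts and Col10a1, of hypertrophic cartilage, to 12. Col4a3 (27 counts), Col4a4 (16) and Col4a6 (37), the type IV chains of specialised basement membranes, and Col22a1 (11) were as rare. When every gene with 10 or more counts was tested, none of the 8 was called by edgeR in any comparison. At an unadjusted p under 0.05 stood Col2a1 alone, in uninduced spheroids against uninduced flat cultures (log2 4.96, SE 2.12, edgeR adjusted p = 0.15), where Col24a1 was at 3.00 (SE 1.33, edgeR adjusted p = 0.16). A p that misses the threshold at such counts does not show that levels were alike.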

How the data were processed

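RNA was measured by sequencing in 8 libraries of 3T3-L1 cells, 2 in each of 4 groups. The values used are raw counts per gene that the authors deposited in 1 table, and the submitters' processing notes name mm10 and the tools HISAT2 2.1.0 and featureCounts 1.6.3, besides Trimmomatic 0.38 and FastQC 0.11.7. The library kit was directional per the labels' protocols, while the strand setting of the counting is not given in the sources used here, so reads of overlapping antisense genes may not be separated. Ensembl identifiers were matched to symbols, exon-union lengths and positions in GENCODE release M21 (GRCm38), which gave a symbol for 49326 of 49585 genes. Genes without one held 0.0285% of counts and stayed in the fit. CPM is the count divided by the TMM-scaled library total, per 1e6, while shares use the unscaled totals.

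edgeR 4.0.16 (R 4.3.3) was fitted to all 8 libraries with TMM scaling, the filterByExpr filter at a minimum count of 10, 1 mean per group and robust quasi-likelihood tests. Residual degrees of freedom were 4, the common dispersion 0.0291 and the median prior degrees of freedom 3.73. A call needs an adjusted p under 0.05 over 15255 genes and a change of 2-fold. Alternatives were RLE scaling, library totals alone, all genes with 10 counts, DESeq2 1.42.0, limma-voom (limma 3.58.1) with group weights, the compared libraries alone, no minimum fold, a replicate block, and leaving out each library. The fitting script was tested on simulated data in which all groups had the same spread and only well-counted genes were changed. That checks the code and does not bear on calls of rare chains or on the unequal spread of the groups. Shares and chain ratios were not tested, and counts of 10 or fewer limit the precision of rare chains.

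Collagen genes called in a comparison, or with a mean of at least 10 CPM, were given with each library's value. From the other lists at most 6 called genes per comparison, those with the smallest adjusted p, were named. The members, classes and lists were chosen with earlier results of these data known. Promoter windows came from RefSeq (GRCm38.p6) and covered 27 of the 35 members.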

Additional observations from a re-analysis of the deposited data

How the results depend on the processing

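Of 18 called values of collagen genes, 7 kept their direction and their call under each alternative and with each library left out: Col11a1, Col11a2 and Col7a1 in both format comparisons, and Col8a1 in uninduced spheroids against uninduced flat cultures. With left-out libraries set aside, 10 did. For induction in flat culture the count of collagen genes higher was 1 with limma-voom and 1 on the 4 libraries compared (0 in the reported fit), and the count lower was 5 and 4 (2 reported). For induction in spheroids the count lower was 2 with DESeq2, 0 with limma-voom and 0 on the 4 libraries compared (1 reported). For spheroids against flat cultures without induction the count higher was 5 with library totals alone, 5 with limma-voom and 5 on the 4 libraries compared (3 reported), and the count lower was 9 with limma-voom and 9 on the 4 libraries compared (4 reported). With induction the count higher was 2 on the 4 libraries compared (5 reported), and the count lower was 5 with limma-voom and 1 on the 4 libraries compared (3 reported). With the replicate block, 1 collagen gene was lower with induction in flat culture and 0 in spheroids (2 and 1 reported), and 3 of the 18 calls were lost. Labels do not say that equal numbers mark a shared preparation, so the numbers were not taken as pairs. The deviations of equal-numbered libraries correlated at 0.206 between uninduced and induced spheroids, and at -0.006 to 0.027 between all other groups. Whether equal-numbered spheroid libraries shared a preparation cannot be told from these values. With 1 library left out, the counts ranged from 2 to 6 (higher) and 2 to 12 (lower) for induced spheroids against induced flat cultures, 2 to 5 and 2 to 9 for the uninduced comparison, 0 to 3 and 0 to 8 for induction in spheroids, 0 to 1 and 0 to 4 for induction in flat culture, and 0 to 4 and 0 to 2 for the interaction. Under induction in spheroids, where all 27 were below 0 without induced spheroid replicate 1 and 23 above 0 without replicate 2, the genes whose values are given include Col12a1 and Col15a1 (log2 -1.955 and -0.320 without replicate 1, 0.014 and 2.113 without replicate 2), and the direction likewise turned for Col4a1 and Col4a2 in induced spheroids against induced flat cultures (-0.042 and -0.240 without replicate 1, 0.629 and 0.865 without replicate 2). The cause was not tested beyond the smaller number of libraries. Calls over all tested genes also changed in number with the setting and with the library left out. A change in the number of calls is therefore not in itself particular to collagen genes, but its size was not shown to be alike. The split of the induced spheroid libraries around the uninduced ones was more frequent among the tested collagen genes, at 70.4% against 17.2% of all tested genes. The collagen share of library counts ranged over single libraries from 1.86% to 4.59% in induced spheroids, 3.19% to 3.41% in uninduced spheroids, 4.36% to 4.47% in induced flat cultures and 5.61% to 5.76% in uninduced flat cultures. Without Col1a1, Col1a2 and Col3a1 the mean shares were 1.70%, 1.81% and 1.73% in uninduced spheroids, induced flat cultures and uninduced flat cultures. Depth limits Col14a1, Col17a1, Col9a3 and the 8 untested genes, and 2 libraries per group limit all tests.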
